A study of Mus musculus with 2 samples.

Results

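Of the 2552 cells measured in 2 adult mouse testes, 706 cells, or 27.7%, scored highest for a set of 4 genes formed by *Ssxb1*, *Ssxb2*, *1700001F09Rik* and *Iqca*. These cells were labelled early round spermatids with *Ssxb* expression and are called Ssxb-set cells here. Each cell received a score for 6 sets of 4 genes. A score was the mean over the 4 genes of log2(1 + CPM), where the unique molecular identifiers (UMIs) of a gene were scaled to 1000000 UMIs per cell (CPM) and each gene was centred and scaled over all cells. A cell was placed in the set with its highest score. The other 5 sets were the Tex101 set (*Tex101*, *Gml*, *Tex12*, *Sycp1*), the Pou5f2 set (*Pou5f2*, *D030056L22Rik*, *Ppp1r27*, *Tcam1*), the 1700029E06Rik set (*1700029E06Rik*, *4930596D02Rik*, *1700001P01Rik*, *Asb15*), the Hemgn set (*Hemgn*, *2200002J24Rik*, *Tmco5b*, *Pex5l*) and the Prm1 set (*Prm1*, *Prm2*, *Tnp2*, *Klk1b8*). The cells were thus selected on their measured expression, and all differences between sets given below are descriptions without a test.

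The testes came from 2 C57Bl/6J Crl mice of 8 weeks of age, and 1 droplet library that counts the 3′ ends of transcripts was made per mouse. The labels give no treatment, agent or altered allele, so that both mice form 1 group. Mouse 1 contributed 1237 cells with 27450497 UMIs in total and mouse 2 contributed 1315 cells with 30302332 UMIs. The libraries shared 0 cell barcodes.

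Male germ cells pass from spermatocytes, which undergo meiosis, to haploid round spermatids, which build the acrosome and the flagellum before protamines replace the histones of their chromatin. The X and Y chromosomes are silenced in pachytene spermatocytes, and a part of their genes is transcribed again in round spermatids. *Ssxb1* and its relatives are X-linked multicopy genes of the synovial sarcoma X breakpoint family, which is known for its expression in the testis. *Iqca* encodes a protein with an IQ motif.

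Ssxb-set cells were found in both mice at a similar share. There were 328 such cells in mouse 1, or 26.5% of its cells with an exact 95% binomial interval of 24.1% to 29.1%. In mouse 2 there were 378, or 28.7% with an interval of 26.3% to 31.3%. They were the most frequent of the 6 sets in each mouse, followed in mouse 1 by the Pou5f2 set with 23.3% (20.95% to 25.74%) and the Prm1 set with 22.4% (20.1% to 24.8%), whose intervals overlapped. Their median depth was 18306 UMIs per cell in mouse 1 and 19440 UMIs in mouse 2, which was lower than the 22451 and 21552 UMIs of the 1700029E06Rik-set cells and the 20560 and 24272 UMIs of the Pou5f2-set cells. After thinning of every cell to 5000 UMIs, Ssxb-set cells held 2346 ± 16.9 genes per cell (SD, n = 2 mice), compared with 2313 ± 2.32 in 1700029E06Rik-set cells and 2258 ± 5.54 in Pou5f2-set cells. The share of UMIs on mitochondrial genes was 0.142% and 0.125% in mouse 1 and 2. It lay between the 0.281% and 0.244% of Pou5f2-set cells and the 0.0392% and 0.0346% of 1700029E06Rik-set cells.

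Most Ssxb-set cells lay well inside the limit of the rule. Their Ssxb score had a median of 1.28 and ranged from 0.122 to 1.80, and it exceeded the next highest score by a median of 0.871. All 4 genes were found in 494 cells, 3 genes in 182 cells and 2 genes in 30 cells, and these had median scores of 1.35, 0.81 and 0.31, so that the score was in part a count of the genes found. The median depth of the same groups was 19727, 17276 and 14752 UMIs. The margin to the next score was under 0.25 in 68 cells, or 9.63%, and under 0.1 in 17 cells. The 3 cells just inside the limit exceeded their next score by 0.00036, 0.0026 and 0.0086, and the 3 cells just outside it missed their highest score by 0.0064, 0.0073 and 0.015. Another 70 cells outside the set lay within 0.25 of it.

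**Figure D1:**
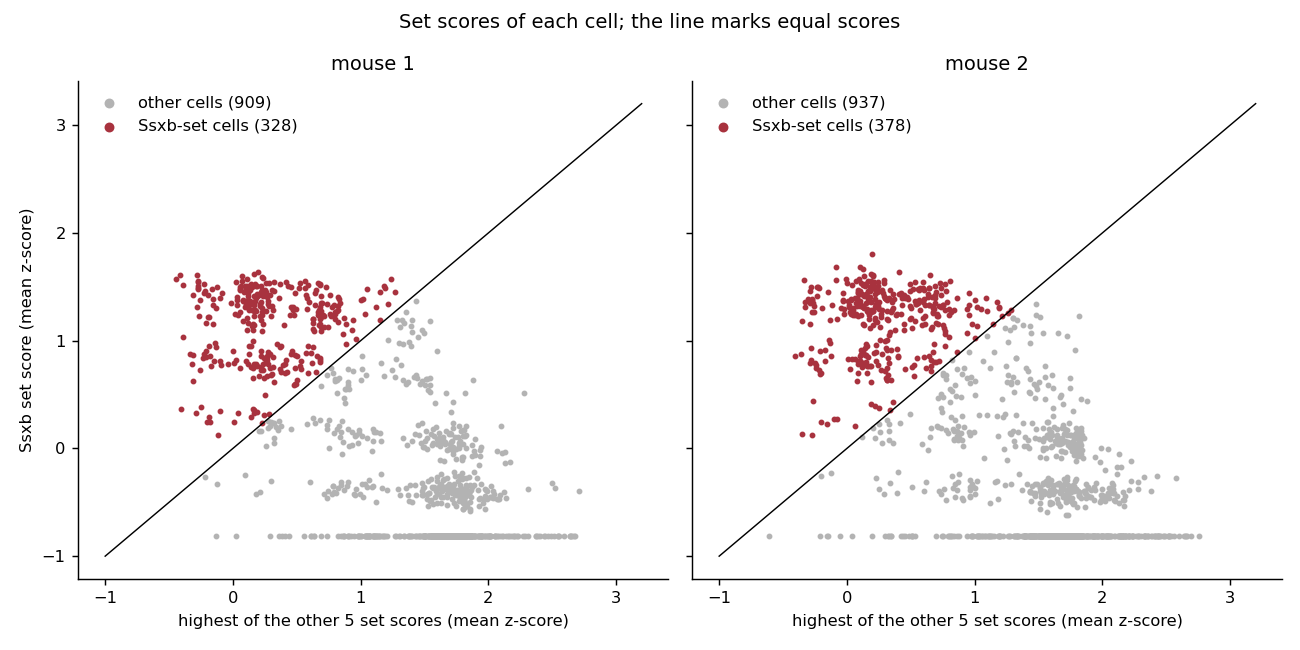
Ssxb set score (y axis, mean z-score) against the highest of the other 5 set scores (x axis) for every cell of mouse 1 and mouse 2, with Ssxb-set cells in red, other cells in grey and a line at equal scores. Ssxb-set cells lie in bands around 1.35, 0.81 and 0.31, which hold the cells with 4, 3 and 2 of the genes found.

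The 4 genes that defined the cells had nearly the same level in both mice. *Ssxb1* (ENSMUSG00000079705, GRCm38 chrX:8413305-8422157, plus strand) had 107 CPM in the summed UMIs of mouse 1 and 108 CPM in mouse 2. *Ssxb2* (ENSMUSG00000023165, chrX:8454345-8461726, minus strand) had 99.0 and 102 CPM. In 1700029E06Rik-set cells the levels were 14.2 and 10.7 CPM for *Ssxb1* and 13.0 and 14.1 CPM for *Ssxb2*, and in the other 4 sets neither gene exceeded 5.52 CPM. The decrease towards the 1700029E06Rik set was smaller for the other pair of genes. *1700001F09Rik* (ENSMUSG00000095384, chr14:43342383-43347811, minus strand) had 353 and 345 CPM in Ssxb-set cells and 146 and 146 CPM in 1700029E06Rik-set cells. *Iqca* (ENSMUSG00000026301, chr1:90042132-90153401, minus strand) had 161 and 164 CPM against 52.4 and 62.3 CPM. In Pou5f2-set cells these genes reached 18.4 and 16.4 CPM and 8.74 and 13.8 CPM.

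Within single cells, *Ssxb1* or *Ssxb2* was found in 691 of 706 Ssxb-set cells (97.9%) and in 266 of 1846 other cells (14.4%). At least 1 UMI of *Ssxb1* was present in 84.8% of Ssxb-set cells of mouse 1 (95% interval 80.4% to 88.5%) and 87.3% in mouse 2 (83.5% to 90.5%). Thinning to 5000 UMIs lowered the share to 40.9% and 39.4%, so that depth decided for many cells whether the gene was seen. The Pou5f2-set cells, with 9.72% and 9.59%, and the 1700029E06Rik-set cells, with 21.5% and 18.4%, had lower shares at higher median depth, and the Prm1-set cells had 3.61% and 0.917% at median depths of 11163 and 12266 UMIs. Because the rule kept cells with these genes out of the other sets, the lower shares there were in part set by the rule. None of these shares measured the background of free RNA, which was not tested.

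Of the further genes of the family, which the rule did not use, *Ssxb3* and *Ssxb6* also had their highest level in Ssxb-set cells. *Ssxb3* (ENSMUSG00000079701, chrX:8583404-8591816) had 33.6 and 35.0 CPM in Ssxb-set cells and was found in 43.9% and 46.3% of them. It was found in 1 of 277 and 0 of 218 Prm1-set cells (exact upper limits 1.99% and 1.68%). These limits hold for cells with a UMI at their depth and do not bound the share of cells expressing *Ssxb3*. In 1700029E06Rik-set cells it had 0 UMIs in mouse 1, where 3 counts would be 0.735 CPM, and 4 UMIs in mouse 2, making it at least 45.8-fold higher in Ssxb-set cells of mouse 1 and 51.4-fold higher in mouse 2. *Ssxb6* (ENSMUSG00000079702, chrX:8542608-8548255) had 32.5 and 26.3 CPM against 7.35 and 3.24 CPM. Few UMIs were available for *Ssxb8* (11.8 and 13.2 CPM), *Ssx9* (10.4 and 9.13 CPM), *Ssxb5* (10.7 and 4.98 CPM) and *Ssxb10* (5.74 and 2.85 CPM). *Ssxa1* gave no common direction in the mice, with 4.30 and 3.80 CPM in Ssxb-set cells and 5.39 and 3.41 CPM in 1700029E06Rik-set cells. *Ssxb9* had 7 UMIs in mouse 1 and 3 UMIs in mouse 2. As the family consists of near-identical copies, reads may have been divided between them or discarded, and the level of a single copy is uncertain.

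**Figure D2:**
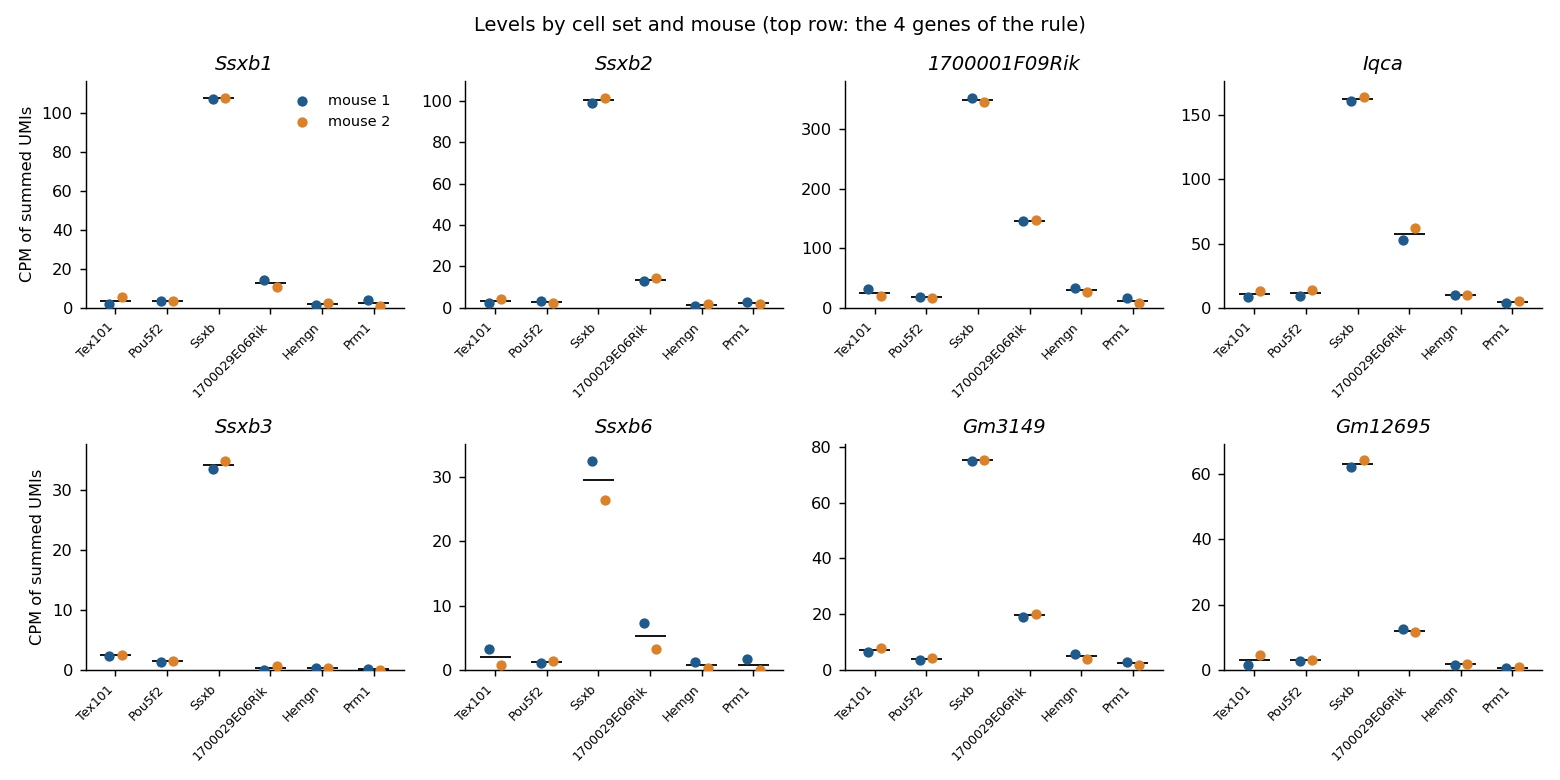
CPM of summed UMIs (y axis, linear, a separate scale for each gene) in the 6 cell sets (x axis) for the 4 genes of the rule (top row) and 4 further genes (bottom row). Points are the mice and lines their mean; every gene is highest in Ssxb-set cells, and *Ssxb3* falls to 0 UMIs in 1700029E06Rik-set cells of mouse 1.

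The promoters of *Ssxb1*, *Ssxb2* and *Ssxb3* resembled each other and are shown here with that of *Ssxb6* for comparison. The RefSeq sequences of the 250 bases before the start of each gene (GRCm38.p6) are given 5′ to 3′ on the strand of the gene. Capitals mark the longest run shared by *Ssxb1*, *Ssxb2* and *Ssxb3*, which is 39 bases long, lies at −115 to −77 from the start of *Ssxb1* and was found in the windows of 3 of 27025 genes.
Ssxb1: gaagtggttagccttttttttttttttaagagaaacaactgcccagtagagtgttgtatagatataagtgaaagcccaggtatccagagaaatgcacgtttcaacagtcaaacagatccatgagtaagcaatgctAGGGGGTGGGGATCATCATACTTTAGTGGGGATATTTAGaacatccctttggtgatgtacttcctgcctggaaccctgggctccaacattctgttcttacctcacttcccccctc
Ssxb2: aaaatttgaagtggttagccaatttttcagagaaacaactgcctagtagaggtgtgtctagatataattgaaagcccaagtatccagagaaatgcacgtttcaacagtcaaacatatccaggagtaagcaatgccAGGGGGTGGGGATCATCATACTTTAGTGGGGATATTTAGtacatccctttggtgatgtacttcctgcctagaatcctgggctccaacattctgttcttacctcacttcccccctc
Ssxb3: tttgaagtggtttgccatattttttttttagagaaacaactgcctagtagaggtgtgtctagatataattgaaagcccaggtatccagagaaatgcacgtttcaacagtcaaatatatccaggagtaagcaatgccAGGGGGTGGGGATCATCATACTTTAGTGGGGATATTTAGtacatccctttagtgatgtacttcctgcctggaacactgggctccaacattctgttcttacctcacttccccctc
Ssxb6: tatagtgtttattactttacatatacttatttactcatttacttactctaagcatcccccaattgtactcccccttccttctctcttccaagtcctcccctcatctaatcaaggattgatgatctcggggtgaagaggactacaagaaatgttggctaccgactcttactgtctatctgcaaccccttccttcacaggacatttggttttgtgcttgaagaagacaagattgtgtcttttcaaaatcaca
Aligned over these windows, *Ssxb3* was identical to *Ssxb1* at 91.7% and to *Ssxb2* at 92.9% of the columns, and *Ssxb1* was identical to *Ssxb2* at 88.8%. *Ssxb6* reached 48.5% with *Ssxb1*. *Ssxb3*, unlike *Ssxb1* and *Ssxb2*, was near 0 in 1700029E06Rik-set cells, and *Ssxb6* also had its highest level in Ssxb-set cells. A relation between these sequences and the levels was not tested. The windows lie at chrX:8413055-8413304 (plus strand) for *Ssxb1* and, on the minus strand, at chrX:8461727-8461976 for *Ssxb2*, chrX:8591817-8592066 for *Ssxb3* and chrX:8548256-8548505 for *Ssxb6*. In these 4 windows, on either strand, none of the motifs TGACGTCA (CRE), TGACG (contained in the CRE), GTTGCC (RFX) and ACAATG (SOX) was present.

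The label of round spermatids was compared with 15 markers of these cells. Their summed level in Ssxb-set cells was 4425 CPM in mouse 1 and 5107 CPM in mouse 2. This was above the 1629 and 1672 CPM of Pou5f2-set cells and below the 7976 and 8345 CPM of 1700029E06Rik-set cells. A gene was called higher or lower than in another set if its CPM differed at least 2-fold in the same direction in both mice. Compared with Pou5f2-set cells, 12 of the 15 markers were higher and 0 lower (of all 8060 genes compared, 19.5% were higher), with a median log2 ratio of 4.25 against −0.22 over all genes. The 15 include 6 markers under 100 UMIs in Pou5f2-set cells of at least 1 mouse, which entered through the Ssxb-set cells. Of the 9 with at least 100 UMIs in Pou5f2-set cells of each mouse, 6 were higher, against 8.82% of all genes under this minimum. Compared with 1700029E06Rik-set cells, 0 were higher and 5 lower (of all 7112 genes compared, 13.4% were higher and 13.6% lower), with a median of −0.95 against 0.31 over all genes.

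Genes of the acrosome and the sperm head were among the markers called higher. *Spaca1*, which is needed for the shape of the acrosome, had 490 and 528 CPM in Ssxb-set cells, 21.9 and 30.0 CPM in Pou5f2-set cells and 929 and 893 CPM in 1700029E06Rik-set cells. *Acrv1*, an acrosomal vesicle protein, had 192 and 232 CPM in comparison to 7.75 and 11.7 CPM and to 402 and 416 CPM. *Sun5*, which links the sperm head to the tail, had 118 and 154 CPM in comparison to 5.36 and 7.16 CPM and to 391 and 403 CPM. *Acrv1* and *Sun5* had under 100 UMIs in Pou5f2-set cells of each mouse. In each case the mice lay close together, the 3 sets did not overlap and Ssxb-set cells took the middle position. *Spata16*, *Dpy19l2* and *Zpbp* were the 3 markers without a 2-fold difference to Pou5f2-set cells, where *Zpbp* had 394 and 537 CPM.

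Over the wider acrosome list of 24 genes, 11 were higher than in Pou5f2-set cells, 1 was lower and 12 were neither, with 19.5% and 16.1% of all genes higher and lower. Of these, 7 genes lacked 100 UMIs in Pou5f2-set cells of at least 1 mouse, and 4 of the other 17 were higher (23.5%, against 8.82% of all genes under this minimum). The hyaluronidase *Spam1* had 122 and 143 CPM against 2.98 and 3.05 CPM, and *Zp3r*, a matrix protein of the acrosome, had 180 and 181 CPM against 4.57 and 5.70 CPM. *Spam1* and *Zp3r* had under 100 UMIs in Pou5f2-set cells and entered through Ssxb-set cells. *Gopc*, a Golgi protein, was the gene that was lower, at 7.81 and 5.10 CPM against 39.4 and 36.3 CPM, and it entered through Pou5f2-set cells, as 0 of 23 acrosome genes were lower with at least 100 UMIs in Ssxb-set cells. *Acr*, encoding acrosin, was at 254 and 264 CPM and differed less than 2-fold from both neighbouring sets. Against 1700029E06Rik-set cells, 5 of 23 genes were lower and 0 higher, with 13.6% and 13.4% of all genes.

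Genes of the meiotic divisions stood closer to Pou5f2-set cells than to 1700029E06Rik-set cells. Of 15 compared genes of this list, 10 were higher than in 1700029E06Rik-set cells, against 13.4% of all genes, and 0 lower, with a median log2 ratio of 1.49. With at least 100 UMIs in 1700029E06Rik-set cells, 8 of 10 were higher, against 6.33% of all genes. Compared with Pou5f2-set cells, 2 were higher, 4 lower (of all genes compared, 19.5% were higher and 16.1% lower) and 9 neither. With at least 100 UMIs in Pou5f2-set cells, 1 of 14 was higher (8.82% of all genes), and with this minimum in Ssxb-set cells, 3 of 14 were lower (8.16%). The kinase *Aurka* had 354 and 277 CPM in Ssxb-set cells against 600 and 556 CPM in Pou5f2-set cells and 55.4 and 48.5 CPM in 1700029E06Rik-set cells. The polo-like kinase *Plk1* was level with Pou5f2-set cells, at 228 and 227 CPM against 210 and 208 CPM, and higher than the 91.1 and 95.7 CPM of 1700029E06Rik-set cells. The meiotic cyclin *Ccna1* had 345 and 321 CPM against 403 and 357 CPM and 82.1 and 97.7 CPM. *Cdk1*, in contrast, was lower than in Pou5f2-set cells, with 38.6 and 39.0 CPM against 209 and 175 CPM. The checkpoint kinase *Bub1* and the phosphatase *Cdc25c* were the 2 genes called higher than in Pou5f2-set cells, and *Cdc25c* had under 100 UMIs there.

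Of 12 compared genes of meiotic prophase, 4 were lower than in Pou5f2-set cells and 2 higher, where 16.1% and 19.5% of all genes were called. With at least 100 UMIs in Ssxb-set cells, 3 of 9 were lower (8.16% of all genes), and with this minimum in Pou5f2-set cells, 0 of 8 were higher (8.82% of all genes). *Sycp3*, a component of the synaptonemal complex, had 125 and 102 CPM against 394 and 362 CPM, and *Mlh3*, a mismatch repair factor of crossovers, had 3.19 and 2.02 CPM against 37.6 and 38.1 CPM. *Mlh3* had under 100 UMIs in Ssxb-set cells of each mouse and entered through Pou5f2-set cells. The meiotic cohesin *Rec8* had 80.8 and 78.0 CPM against 3.67 and 2.79 CPM, and *Tex15* had 66.2 and 90.8 CPM against 3.67 and 2.65 CPM. These 2 genes were at a similar level in 1700029E06Rik-set cells, with 87.7 and 88.6 CPM for *Rec8*. Both had under 100 UMIs in Pou5f2-set cells of each mouse and entered the comparison through Ssxb-set cells. Of 9 genes of this list compared with 1700029E06Rik-set cells, 3 were higher and 0 lower, where 13.4% and 13.6% of all genes were called. Under the minimum in 1700029E06Rik-set cells, 2 of 8 were higher (6.33% of all genes). Each of the scalings described below left 1 of 9 higher.

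**Figure D3:**
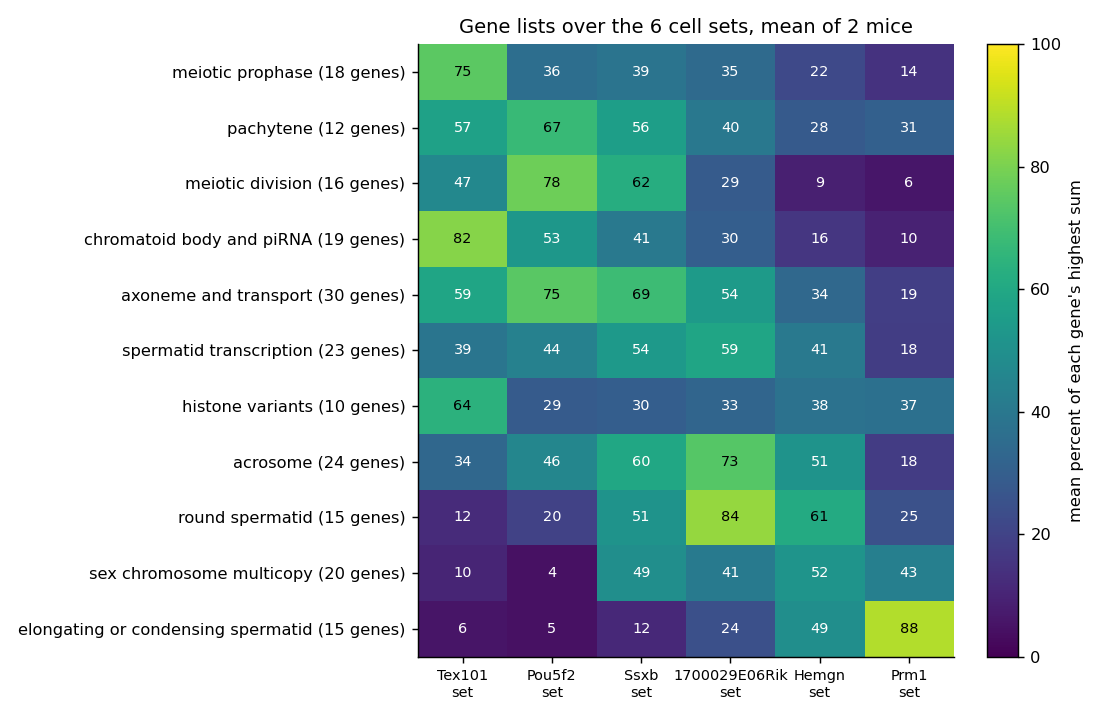
Mean level of 11 gene lists (rows) in the 6 cell sets (columns), each gene expressed as percent of its highest class sum and averaged over genes and 2 mice. In Ssxb-set cells the round spermatid list was at 51.3% and the meiotic division list at 62.4%, between the 19.6% and 77.7% of the Pou5f2 set and the 84.0% and 28.6% of the 1700029E06Rik set.

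Of 21 compared regulators of transcription in spermatids, 8 were higher than in Pou5f2-set cells, against 19.5% of all genes, and 3 were lower, near the 16.1% of all genes. With at least 100 UMIs in Pou5f2-set cells, 3 of 16 were higher and 3 lower (18.75% each), against 8.82% and 19.4% of all genes under this minimum. *Sox5*, a SOX factor with a spermatid transcript, had 268 and 335 CPM against 11.1 and 9.42 CPM in Pou5f2-set cells and 622 and 674 CPM in 1700029E06Rik-set cells. *Klf4* had 64.1 and 73.8 CPM, close to the 71.0 and 84.5 CPM of 1700029E06Rik-set cells and far from the 3.87 and 3.85 CPM of Pou5f2-set cells. In Pou5f2-set cells, *Klf4* had under 100 UMIs in each mouse and *Sox5* in mouse 2, so that both entered that comparison through Ssxb-set cells. *Crem*, an activator of genes in round spermatids, had 621 and 728 CPM against 312 and 324 CPM in Pou5f2-set cells and 708 and 804 CPM in 1700029E06Rik-set cells. *Crem* was 1.99-fold higher than in Pou5f2-set cells in mouse 1 and 2.25-fold higher in mouse 2, and thus just missed the limit. *Fhl5*, a coactivator of CREM, was further below 1700029E06Rik-set cells, with 90.1 and 136 CPM against 612 and 689 CPM in 1700029E06Rik-set cells. *Tbpl1*, which encodes a TBP-related factor, was level with Pou5f2-set cells at 1305 and 1204 CPM. Against 1700029E06Rik-set cells, 3 of 20 genes were higher with total UMIs as the scale, near the 13.4% of all genes. A further 4 were lower, against 13.6% of all genes. With the TMM and median-of-ratios scalings described below, 0 were higher and 6 and 7 lower. Of all 7112 genes, 667 and 542 were then higher and 1212 and 1345 lower.

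Axoneme and transport genes were little different as a list. Of 30 compared, 4 were higher and 5 lower than in Pou5f2-set cells, near the 19.5% and 16.1% of all genes, and 4 higher and 1 lower among 29 compared with 1700029E06Rik-set cells, where all genes gave 13.4% and 13.6%. The tektins *Tekt2* and *Tekt4* were among those higher than in Pou5f2-set cells, with 718 and 799 CPM against 190 and 187 CPM, and 870 and 954 CPM against 354 and 336 CPM. The dynein intermediate chain *Dnaic2* had 78.0 and 65.2 CPM, higher than the 9.80 and 10.2 CPM of 1700029E06Rik-set cells. *Dnaic2* had under 100 UMIs in the latter in each mouse and entered through Ssxb-set cells. With at least 100 UMIs in 1700029E06Rik-set cells, 3 of 25 genes were higher (6.33% of all genes). *Tekt5* was below both neighbouring sets, at 15.5 and 14.7 CPM against 36.4 and 41.0 CPM and against 65.2 and 75.3 CPM. It had under 100 UMIs in Ssxb-set cells of mouse 1 and entered through the other sets. The list of chromatoid body and piRNA genes had 6 of 18 genes lower than in Pou5f2-set cells, against 16.1% of all genes, and 0 higher, or 3 of 14 with at least 100 UMIs in Ssxb-set cells (8.16% of all genes), including the PIWI protein *Piwil1* with 15.9 and 12 CPM against 165 and 190 CPM. Of the pachytene list, 3 of 11 genes were lower and 0 higher, against the same share, or 2 of 10 with at least 100 UMIs in Ssxb-set cells (8.16% of all genes).

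Of the 15 compared genes of elongating and condensing spermatids, 8 were higher than in Pou5f2-set cells and 8 lower than in 1700029E06Rik-set cells, against 19.5% and 13.6% of all genes. With at least 100 UMIs in the Pou5f2 set, 8 of 14 were higher (8.82% of all genes), and with this minimum in the Ssxb set, 8 of 14 were lower than in 1700029E06Rik-set cells (8.68%). The linker histone *Hils1* had 552 and 706 CPM against 56.4 and 57.7 CPM in Pou5f2-set cells and 1581 and 1740 CPM in 1700029E06Rik-set cells. *H1fnt*, a linker histone of spermatids, had 75.1 and 91.9 CPM and 581 and 675 CPM in the latter. *Prm1*, which the rule used for another set, had 2319 and 1768 CPM in Ssxb-set cells and 1418 and 1054 CPM in Pou5f2-set cells. The contribution of free RNA to these levels was not tested. Of 9 compared histone variants, 2 were higher and 0 lower than in Pou5f2-set cells, with 19.5% of all genes higher. Against 1700029E06Rik-set cells 2 of 8 were higher, one of them *H2afx* with 54.5 and 45.9 CPM against 16.4 and 13.8 CPM, and 4 were lower, with 13.4% and 13.6% of all genes. *H2afx* entered through the Ssxb-set cells, and with at least 100 UMIs in 1700029E06Rik-set cells 1 of 7 was higher, against 6.33% of all genes.

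Transcripts of the X chromosome differed in their share between the sets. They made up 0.758% of gene UMIs in Ssxb-set cells of mouse 1 and 0.827% in mouse 2 (0.793 ± 0.0491%, SD, n = 2). This includes *Ssxb1* and *Ssxb2*, which the rule used to select the cells. The share was 0.153% and 0.141% in Pou5f2-set cells and 1.33% and 1.36% in 1700029E06Rik-set cells. Without the 10 most abundant X-linked genes of each sum it was 0.571% and 0.614% in Ssxb-set cells, against 0.0881% and 0.0806% and against 0.972% and 0.969%. Single cells showed the same order, with the middle 50% of Ssxb-set cells between 0.608% and 0.887% in mouse 1 and between 0.714% and 0.965% in mouse 2. The 5th percentile of Ssxb-set cells was 0.340% in mouse 1, below the 95th percentile of 0.491% in Pou5f2-set cells, so that these sets overlapped in single cells, whereas in mouse 2 the 5th percentile of 0.416% was above the 95th percentile of 0.402%. The 95th percentiles of 1.06% and 1.11% exceeded the 5th percentiles of 0.980% and 0.974% in 1700029E06Rik-set cells.

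Gene by gene, 137 X-linked genes reached 100 UMIs over the Ssxb and Pou5f2 sets together. Of these, 123 did not reach it in Pou5f2-set cells alone and entered only once the UMIs of Ssxb-set cells were added. In Ssxb-set cells alone, 20 of the 137 did not reach it. Of the 14 with at least 100 UMIs in Pou5f2-set cells of each mouse, 9 were higher in Ssxb-set cells and 1 was lower, while 8.71% of 6026 autosomal genes under the same minimum were higher and 19.4% lower. Of 117 X-linked genes with at least 100 UMIs in Ssxb-set cells of each mouse, 28 (23.9%) were lower than in 1700029E06Rik-set cells and 3 higher, compared with 8.39% and 15.1% of 5708 autosomal genes. The Y chromosome share was 0.0559% and 0.0665% of gene UMIs in Ssxb-set cells, 0.00216% and 0.00230% in Pou5f2-set cells and 0.0785% and 0.0865% in 1700029E06Rik-set cells. A Y-linked UMI was found in 98.8% and 98.9% of Ssxb-set cells, against 39.2% and 45.2% of Pou5f2-set cells, and in 88.4% and 91.5% against 14.9% and 12.3% after thinning to 5000 UMIs.

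**Figure D4:**
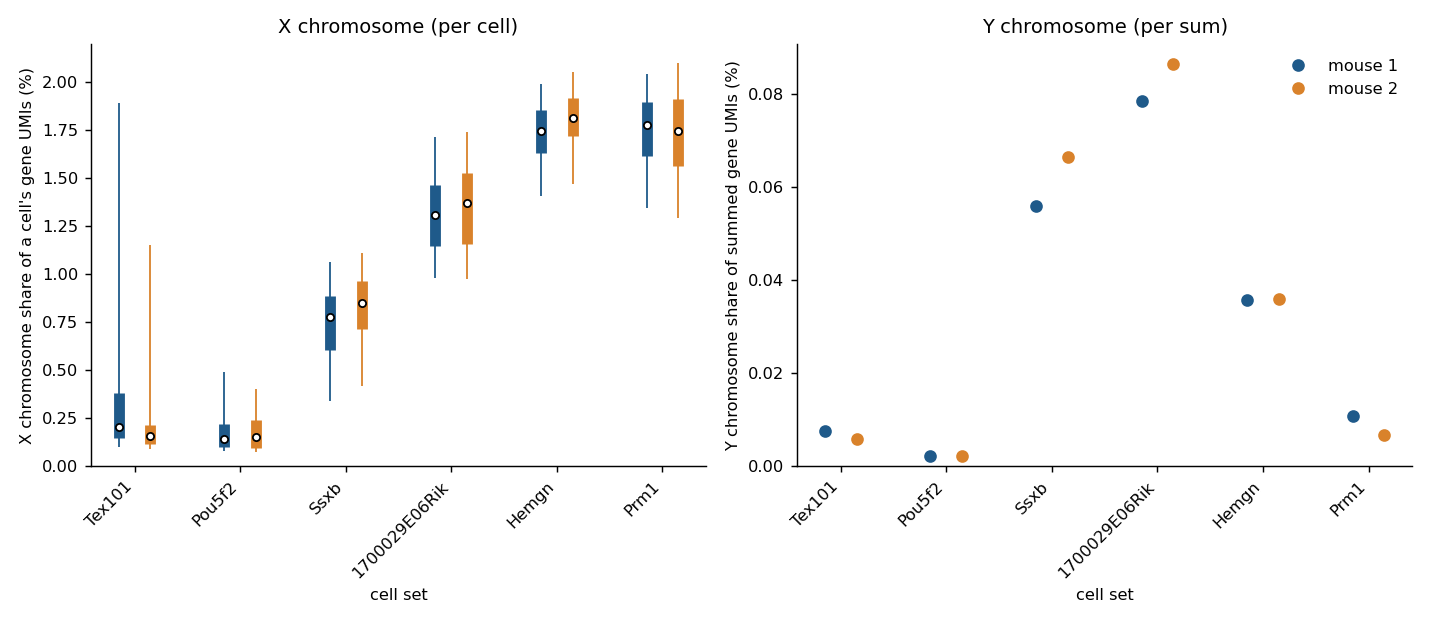
Left, X chromosome share of gene UMIs per cell (y axis, percent) in the 6 sets (x axis), with the 5th to 95th percentile as thin line, the middle 50% as thick line and the median as circle for mouse 1 (blue) and mouse 2 (orange). Right, Y chromosome share of the summed gene UMIs (percent); Ssxb-set cells lie between Pou5f2-set and 1700029E06Rik-set cells for both chromosomes.

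Multicopy genes of the sex chromosomes, 39 of which were in the data, summed to 1041 and 1165 CPM in Ssxb-set cells, including the 2 genes of the rule. The sum was 134 and 140 CPM in Pou5f2-set cells and 2608 and 2605 CPM in 1700029E06Rik-set cells, and 8 and 10 of the genes were at 0 in Ssxb-set cells. *Cypt12* alone gave 1403 and 1347 CPM of the sum in 1700029E06Rik-set cells. As percent of each gene's highest sum, 20 genes without those of the rule averaged 50.8% and 47.7% in Ssxb-set cells. In 1700029E06Rik-set cells they averaged 42.7% and 40.0%, so that the order depended on the measure. These 20 include further *Ssxb* genes. Only 9 could be compared with Pou5f2-set cells, most of them through their level in Ssxb-set cells, and their calls are not counted. *Slxl1* had 48.9 and 40.7 CPM against 3.08 and 5.04 CPM, and the ferritin-like gene *Fthl17a* had 64.9 and 70.4 CPM against 4.37 and 2.92 CPM. *Cypt12*, of a family of cysteine-rich perinuclear theca genes, had 266 and 312 CPM in Ssxb-set cells against 1403 and 1347 CPM in 1700029E06Rik-set cells.

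In the comparison with Pou5f2-set cells, 1569 of 8060 genes were higher and 1297 lower. The balance depended on the minimum of UMIs. With at least 100 UMIs asked of Pou5f2-set cells alone, 534 of 6056 genes were higher and 1173 lower. With it asked of Ssxb-set cells alone, 1428 of 5844 were higher and 477 lower. The 10 genes with the largest ratios were *Gm4985*, *Frmd4b*, *A630023A22Rik*, *Gm21721*, *Fam135b*, *Gm6588*, *Gm20611*, *Gm45787*, *Ppp4r3c-ps* and *1700010H22Rik*. *Gm6588* had 137 and 174 CPM against 2.38 and 2.79 CPM, and *1700010H22Rik*, a non-coding RNA, had 64.4 and 77.3 CPM against 0.794 and 1.72 CPM. *Fam135b* had 29.3 and 41.9 CPM and 5 UMIs in Pou5f2-set cells of each mouse. *Gm6588*, *1700010H22Rik* and *Fam135b* had under 100 UMIs in Pou5f2-set cells of each mouse and entered through Ssxb-set cells. *Gm4985* and *Ppp4r3c-ps* are on the X chromosome and *Gm21721* is on the Y chromosome. The 10 genes with the smallest ratios were *4933412L11Rik*, *Adrb1*, *AI838599*, *4930581F22Rik*, *Phf2*, *Rfxap*, *Gm35256*, *Kri1*, *Sap30* and *Samd7*. *Phf2*, a histone demethylase, had 2.55 and 2.96 CPM against 90.9 and 83.2 CPM, and *Sap30*, a subunit of the SIN3 corepressor complex, had 3.51 and 2.25 CPM against 84.6 and 67.5 CPM. *Adrb1*, the beta-1 adrenergic receptor, had 2 UMIs in Ssxb-set cells of each mouse and 244 and 208 UMIs in Pou5f2-set cells. All 10 genes with the smallest ratios had under 100 UMIs in Ssxb-set cells of each mouse and entered through Pou5f2-set cells.

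In the comparison with 1700029E06Rik-set cells, 956 of 7112 genes were higher and 965 lower. With at least 100 UMIs asked of 1700029E06Rik-set cells alone, 298 of 4708 genes were higher and 857 lower. With it asked of Ssxb-set cells alone, 875 of 5844 were higher and 507 lower. The balance also depended on the scale, with 542 higher and 1345 lower under median-of-ratios size factors and 667 higher and 1212 lower under TMM factors. Both scalings lowered the log2 ratios to these cells, by 0.33 and 0.31 in mouse 1 and 2 for median-of-ratios and by 0.14 and 0.23 for TMM. The median ratio over all genes, 0.31 with total UMIs, was −0.01 and 0.12 under the same scalings. The lower counts of some lists above grew with these scalings, to 12 and 8 of 15 round spermatid markers, 10 and 8 of 23 acrosome genes and 11 and 11 of 15 genes of elongating spermatids. That of the histone variants stayed at 4 of 8, and 8 and 9 of 15 genes of the meiotic divisions were still higher. The 10 genes with the largest ratios were *Ssxb3*, *Nolc1*, *4930572O03Rik*, *Nudt16l1*, *Gm8138*, *Slc2a8*, *Chgb*, *Rrm1*, *Fancg* and *Lsg1*. *Nolc1*, a nucleolar phosphoprotein, had 35.2 and 27.3 CPM against 1.47 and 1.53 CPM, and *Rrm1*, the large subunit of ribonucleotide reductase, had 68.6 and 53.5 CPM against 7.11 and 5.96 CPM. *Ssxb3*, *Nolc1* and *Rrm1* had under 100 UMIs in 1700029E06Rik-set cells of each mouse and entered through Ssxb-set cells. *Nolc1*, *Nudt16l1*, *Slc2a8*, *Rrm1*, *Fancg* and *Lsg1* were higher in Pou5f2-set than in Ssxb-set cells of both mice, at 61.7 and 59.4 CPM for *Nolc1*. *Chgb*, a secretory granule protein, had 35.2 and 43.1 CPM in Pou5f2-set cells and 60.4 and 52.7 CPM in Ssxb-set cells. The 10 genes with the smallest ratios were *4921509C19Rik*, *4930548H24Rik*, *Nrros*, *RP23-149M7.3*, *4930405D11Rik*, *Zfp362*, *Slc25a41*, *Saxo1*, *Cct8l1* and *Tmem144*. *Saxo1*, which binds stabilised microtubules, had 4.62 and 7.23 CPM against 125 and 139 CPM, and *Slc25a41*, a mitochondrial carrier, had 2.23 and 2.61 CPM against 47.0 and 57.2 CPM. Both had under 100 UMIs in Ssxb-set cells of each mouse and entered through 1700029E06Rik-set cells.

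Of 5844 genes with at least 100 UMIs in these cells in each mouse, 813 were highest there in both mice, and 48 genes (0.821%) exceeded each of the other 5 sets at least 2-fold in both mice. Among the 15 with the largest ratio to the next set were *Ssxb3*, *Gm12695*, *Ssxb6*, *Gm6408*, *Gm3685*, *Gm21083*, *4930572O03Rik*, *Gm2888*, *Gm3453*, *Gm3149*, *RP23-471H21.2*, *Rbm10*, *Speer4e* and *Lhb*. *Gm12695* had 62.0 and 64.0 CPM, 4.96-fold above the next set in the mouse with the smaller ratio. *Rbm10*, an X-linked splicing regulator, had 20.1 and 19.3 CPM against 6.37 and 5.11 CPM in 1700029E06Rik-set cells and 0.695 and 1.06 CPM in Pou5f2-set cells. *Lhb*, the beta subunit of luteinizing hormone, had 65.5 and 65.7 CPM against 22.3 and 17.7 CPM and 14.1 and 14.7 CPM in the same sets.

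A large part of the 48 genes belonged to chromosomal clusters of gene copies. On chromosome 14 there were 13 of them among 213 genes compared (6.10%), and on chromosome 5 there were 11 among 433 (2.54%). Of the former, 12 lay within chr14:3030002-7595592, where 14 of 17 compared genes had their highest level in Ssxb-set cells. The 12 genes of the 48 alone summed to 931 and 970 CPM in Ssxb-set cells. Their sum was 312 and 357 CPM in 1700029E06Rik-set cells and 77.8 and 91.5 CPM in Pou5f2-set cells. The other genes compared there are not in these sums. A further 7 lay within chr5:14910122-15714271, among them *Speer4e* and *Speer4c*, and all 7 genes compared there were highest in Ssxb-set cells. They summed to 308 and 240 CPM, against 90.9 and 81.4 CPM in 1700029E06Rik-set cells. Of all 5844 genes compared, 813 were highest in Ssxb-set cells in both mice. The clusters were delimited after the values were seen and start and end at genes of the 48, so that high counts within them were in part built in. All summed genes of both clusters were among the 48, so that sums at least 2-fold above the other sets were also built in. Where a promoter was listed, the nearest other copy among the genes named for the same chromosome was identical at a median of 93.7% of aligned columns on chromosome 14 (10 genes) and 84.3% on chromosome 5 (10 genes). As for the Ssxb family, counts of single copies are uncertain.

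The RFX motif GTTGCC, searched on both strands of the 250 bases before each start, was present for 15 of 37 of these genes with a listed promoter (40.5%). It was present in 10.5% of all 27025 promoters and in 13.7% of 4453 promoters of the 5844 genes compared. Of the 15 promoters, 7 belonged to chromosome 14 and 6 to chromosome 5, where copies share their sequence, and on the remaining chromosomes 2 of 17 (11.8%) held it. For the other motifs, the shares in these genes, in all promoters and in those of the genes compared were 18.9%, 10.99% and 8.11% for ACAATG (7 of 37), 10.8%, 17.9% and 29.1% for TGACG (4 of 37) and 2.70%, 1.62% and 3.44% for TGACGTCA (1 of 37). A match describes the sequence only.

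The genes most like the 4 rule genes over the 12 sums of set and mouse included *Gm3149*, *Gm12695* and *Gm3453* from the list above. Pearson's coefficient of log2(1 + CPM) was highest for *Gm3149* (0.988), *Zfp819* (0.987), *Gm12695* (0.985), *Gm5797* (0.984) and *Gm5458* (0.981) among 7579 genes. *Ccdc166*, *Gm8362*, *Gm3453*, *Gm3127* and *Klhl28* followed, down to 0.972. The 12 sums share 2 libraries, and the coefficients are given as a description. The sets were formed with the 4 rule genes themselves. High coefficients for genes highest in Ssxb-set cells, and the overlap with the list above, were thus in part built in. *Zfp819*, a zinc finger gene, had 55.2 and 62.7 CPM in Ssxb-set cells, 19.8 and 19.9 CPM in 1700029E06Rik-set cells and 2.58 and 2.25 CPM in Pou5f2-set cells.

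Ssxb-set cells differed among themselves in the set they were nearest to. The set with the next highest score was the Pou5f2 set in 101 cells of mouse 1 (30.8%) and 62 cells of mouse 2 (16.4%), the 1700029E06Rik set in 82 cells (25%) and 163 cells (43.1%), and the Tex101 set in 117 cells (35.7%) and 110 cells (29.1%). The Hemgn set followed in 19 and 36 cells and the Prm1 set in 9 and 7 cells. The mice thus differed in which neighbour was nearer, and the exact 95% intervals of the share next to the 1700029E06Rik set, 20.4% to 30.1% and 38.1% to 48.3%, did not overlap. These intervals cover counting error only.

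As this division was made on expression, its values are again given without a test. Between cells next to the 1700029E06Rik set and cells next to the Pou5f2 set, 335 of 4513 genes (7.42%) were at least 2-fold higher in both mice in the former and 104 (2.30%) in the latter. Of the round spermatid list, 5 of 15 genes were higher in the former and 0 in the latter. *Spaca1*, which stayed under the 2-fold limit, had 665 and 641 CPM next to the 1700029E06Rik set and 362 and 340 CPM next to the Pou5f2 set. *Hils1* had 860 and 930 CPM against 326 and 393 CPM. *Aurka* had the opposite order, with 182 and 151 CPM against 505 and 493 CPM. Cells next to the Tex101 set lay in between, with 476 and 478 CPM of *Spaca1* and 348 and 311 CPM of *Aurka*. The X chromosome share was 0.920% and 0.942% next to the 1700029E06Rik set and 0.593% and 0.628% next to the Pou5f2 set. *Ssxb1* was nearly level, with 94.4 and 105 CPM against 104 and 105 CPM, while *Ssxb3* had 20.97 and 20.4 CPM against 36.5 and 54.0 CPM.

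**Figure D5:**
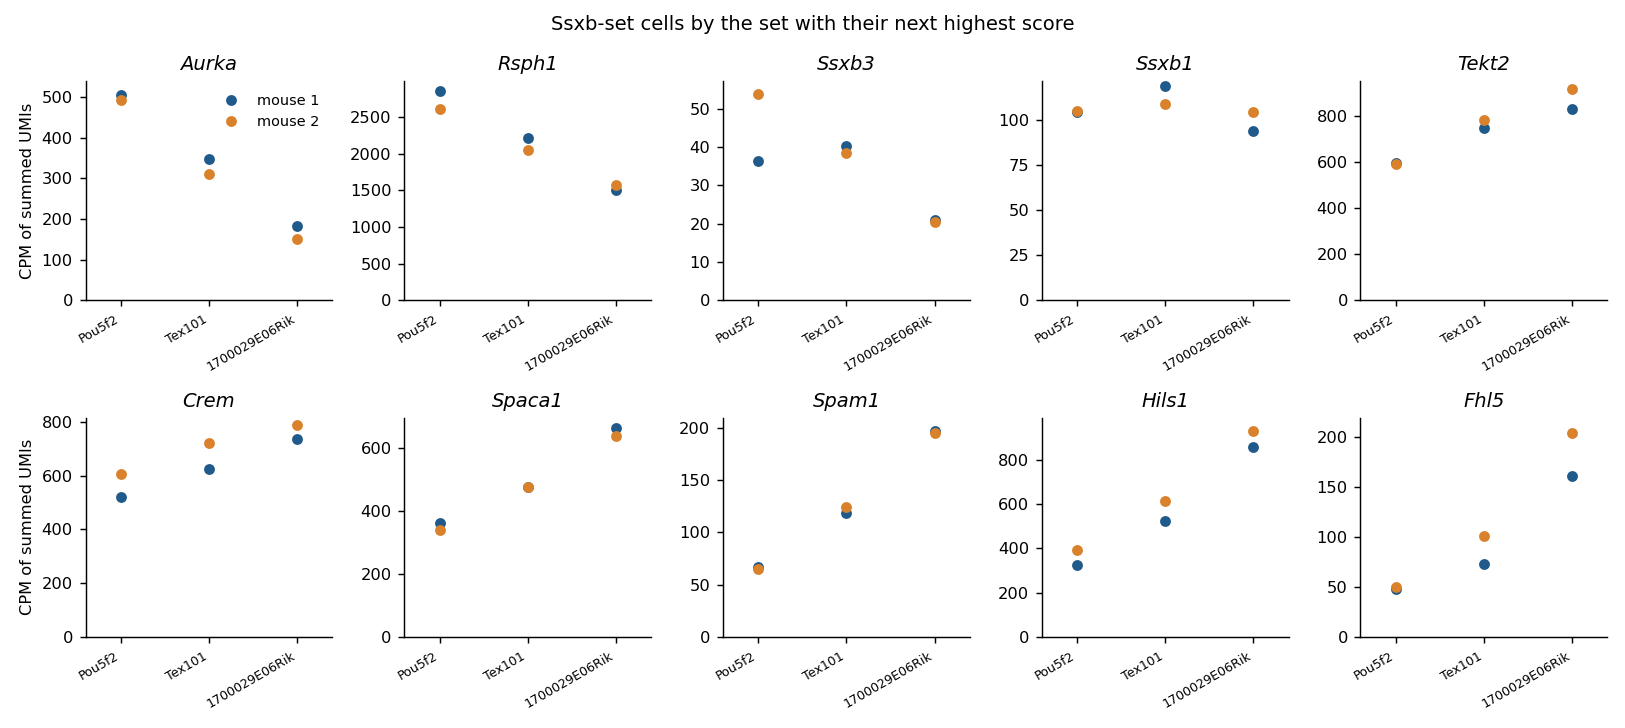
CPM of summed UMIs (y axis, linear, a separate scale for each gene) in Ssxb-set cells divided by the set of their next highest score (x axis), for 10 genes, with a point for each mouse. *Aurka* and *Rsph1* decrease and *Spaca1*, *Spam1*, *Hils1* and *Fhl5* increase from the cells next to the Pou5f2 set to those next to the 1700029E06Rik set, while *Ssxb1* is nearly level.

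The mice differed in the nearest sets of their Ssxb-set cells, as given above, and the levels of single genes were compared between them. Of 7905 genes with at least 100 UMIs over both mice, 94.7% differed by less than 1.5-fold between Ssxb-set cells of the mice, 40 were at least 2-fold higher in mouse 2 and 17 in mouse 1. The largest ratios were those of *Tmem165*, with 25.5 CPM in mouse 2 and 3.19 CPM in mouse 1, and *Ccdc74a*, with 38.5 and 6.22 CPM. *Ybx2*, a germ cell RNA-binding protein of the chromatoid body list, had 681 CPM in mouse 2 and 291 CPM in mouse 1, and the related *Ybx1*, looked up after this value was seen, had 2055 and 532 CPM. *Insl3*, a marker of Leydig cells, had 6.40 CPM in mouse 2 and 19.3 CPM in mouse 1.

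Markers of other cell types were low in Ssxb-set cells. The 14 Sertoli markers summed to 30.9 and 23.0 CPM in mouse 1 and 2, with *Clu* as the most abundant gene at 9.57 and 6.76 CPM and with 3 and 4 markers at 0. The 9 Leydig markers summed to 63.0 and 39.8 CPM, led by *Fabp3* with 31.6 and 26.9 CPM. Their sum was 53.7 and 91.0 CPM in Pou5f2-set cells and 39.2 and 24.5 CPM in 1700029E06Rik-set cells. A low Leydig sum was thus not particular to Ssxb-set cells. Spermatogonial markers (12 genes) summed to 16.9 and 12.1 CPM, immune markers (8 genes) to 2.07 and 6.29 CPM, peritubular or endothelial markers (8 genes) to 7.01 and 6.40 CPM and red blood cell markers (5 genes) to 5.26 and 8.66 CPM. Doublets were called in 4 of the 706 cells.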

How the data were processed

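Testis cells of 2 mice were sequenced on the 10x Chromium platform with 1 library per mouse. The authors demultiplexed the reads with Cell Ranger 2.0.0 and bcl2fastq 2.17.1.14, counted UMIs against the repeat-masked GRCm38 genome with repeat consensus sequences added as extra chromosomes, and aggregated both libraries after downsampling of reads to an equal mean depth per cell. The deposited values are raw UMI counts for 50686 genes and 1182 repeats in 2552 cells. The suffix of the cell barcode was taken as the number of the mouse. No cell was removed. The cells belong to 2 libraries, and cells are not replicates.

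Members and gene lists were chosen with earlier results of these data known. Scores were computed in Python 3.11.15 with numpy 2.4.6, scipy 1.17.1 and pandas 2.3.3. UMIs were summed per set and mouse, which gave 12 sums, and expressed as CPM. A gene was compared between 2 sets if its sums together reached 100 UMIs in each mouse, and counts under 3 were taken as 3. Counts for all genes, chromosomes and gene lists are also given with the minimum asked of 1 set alone, a choice made after the values were seen. The 24 genes of the rule and the repeats were left out of calls. As expression defined the sets, no test was made, and spread is given as SD over 2 mice. Exact binomial intervals and the floor of 3 counts cover counting error only.

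The text names the 10 genes with the largest and smallest ratios in both mice per comparison, the 15 genes with the largest ratio to the next set, the 10 genes most correlated with the rule among those with a mean of at least 10 CPM, and members of the lists with extreme ratios or needed for a count. One gene selected by this rule is not reported here. Further list members were added for their role after their values were seen. Coordinates are from GENCODE M21 (50462 of 50686 identifiers matched) and promoters from RefSeq (27025 genes), aligned with Biopython 1.88. The RefSeq table held no promoter for *1700001F09Rik*. Doublets were called per mouse with Scrublet in scanpy 1.11.5 (22 cells) and kept. TMM factors came from edgeR 4.0.16 in R 4.3.3. Cells were thinned with seed 42. The scripts were tested on simulated counts. Alternatives changed the scoring, depth, doublets, filter, scaling and fold, and left out each mouse.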

Additional observations from a re-analysis of the deposited data

Results flagged for a closer look

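Rows that count repeat sequences were not part of any comparison, and 8 of 98 such rows with at least 200 UMIs in Ssxb-set cells had their highest level there in both mice, compared with 813 of 5844 genes with at least 100 UMIs. The 3 with the largest ratio to the next set, taken in the mouse with the smaller ratio, are endogenous retroviral rows. IAPLTR1a_I_MM_ERV2_Mus, an intracisternal A particle element, had 762 CPM in mouse 1 and 842 CPM in mouse 2, with a mean of 802 CPM. The next highest set was the 1700029E06Rik set with 359 and 356 CPM. IAPLTR2a2_Mm_ERV2_Mus had 50.1 and 52.3 CPM, with a mean of 51.2 CPM, against 24.5 and 26.1 CPM in 1700029E06Rik-set cells. RLTR6_MM_ERV1_Mus had 62.3 and 53.6 CPM, with a mean of 58.0 CPM, against 35.6 and 26.8 CPM in Tex101-set cells. The next row, IAPLTR1a_MM_ERV2_Mus, had 23.9 and 26.6 CPM and a smaller ratio of 1.74, close to the 1.75 of RLTR6_MM_ERV1_Mus, and MMVL30_Internal had 171 and 160 CPM. All repeats together took 1.48% and 1.60% of the UMIs of Ssxb-set cells.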

How the results depend on the processing

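Of 94 values under the alternatives, 74 stayed within the range set for them. The range was 1 SD over the 2 mice for the 2 shares and a 1.5-fold change for counts. With n = 2, a share with 1 mouse left out always lies within 1 SD, so that these checks could not fail. The share of Ssxb-set cells was 27.6% as a mean of the mice and 23.21% after thinning to 5000 UMIs, and it was 26.52% to 28.75% with 1 mouse left out. The X chromosome share was 0.7579% to 0.8274% with 1 mouse left out. Counts of genes higher and lower than in 1700029E06Rik-set cells, 956 and 965, became 295 and 445 after thinning, 1881 and 2215 without a minimum of UMIs, 340 and 444 with at least 500 UMIs, 1993 and 1472 at 1.5-fold and 324 and 488 at 3-fold, and median-of-ratios factors left 542 higher. With 1 mouse left out, 1238 to 1270 were higher and 1152 to 1227 lower. Against Pou5f2-set cells, 1569 and 1297 became 612 and 269 after thinning, 3509 and 2524 without a minimum and 690 and 481 with at least 500 UMIs. They became 1991 and 2311 at 1.5-fold, where lower genes outnumbered higher ones, 1227 and 608 at 3-fold, and 1357 and 874 without the cells of very high UMI count. With 1 mouse left out, 1636 to 1925 were higher and 1531 to 1685 lower, as 1 mouse then sufficed for a call. By construction, thinning left 3547 and 3970 genes to compare and no minimum gave 19623 and 20459.

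Each ratio was taken within a mouse, so that sets were compared in pairs, and no fit with a replicate block was made because no test was made. Both animals form 1 group, so that spread between mice rests on n = 2. Genes with few UMIs, such as *Ssxb9* and *Ssxa1*, could not be ordered between sets at this depth, and whether a transcript was seen in a single cell depended on its UMIs.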
